A study of Mus musculus with 9 samples.

Results

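Lymphatic endothelial cells (LECs) of the meninges were set against LECs of the periphery in a single contrast, the mean of the Meninges libraries minus the average of the Diaphragm and Skin means on the log2 scale. All 9 libraries of the series entered it, 3 from meninges and 6 from the 2 peripheral tissues, in one fit. The cells were sorted by flow cytometry as CD45-, CD31+ and PDPN+ (CD45 marks leukocytes, CD31 is encoded by Pecam1, PDPN is podoplanin). The donors were male C57BL/6 mice of 10 weeks, wild type and untreated, and no group carried a transgene or a further treatment. The labels do not state that each library had its own animals, and p-values therefore reflect the variation among libraries alone, which may be technical. Of 23018 genes in the table, 14831 passed the filter on low counts and were tested, and 256 of them were called at an edgeR adjusted p under 0.05.

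Lymphatic vessels drain fluid, solutes and immune cells from tissue, and the LECs that line them are specified by the transcription factor PROX1 and maintained by VEGF-C acting on the receptor VEGFR3 (encoded by Flt4). Initial lymphatics take up fluid through loose junctions and carry the hyaluronan receptor LYVE1, while collecting vessels carry valves and contract under the control of nitric oxide. Meningeal lymphatics lie in the dura along its venous sinuses, and carry cerebrospinal fluid components and immune cells towards the cervical lymph nodes.

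Total counts per library ran from 26075400 to 34592800 and their difference between meninges and the periphery did not pass (exact permutation test, 2-sided, p = 0.167). The meningeal libraries held more genes with a count, 16946 ± 464 (SD, n = 3) against 14510 ± 859 (SD, n = 6), with no overlap (exact permutation p = 0.0119, the smallest that 84 arrangements allow). The share of mitochondrial ribosomal RNAs was 17.3% ± 6.1 (SD, n = 3) in meninges and 26.6% ± 4.6 (SD, n = 6) in the periphery (exact permutation p = 0.0357). Without these RNAs 180 genes were called higher and 79 lower, against 177 and 79 with them. The part of the number of genes detected was not tested. Levels are given as CPM, the read count relative to the TMM-scaled library size. Counts are not divided by gene length, so levels are compared between libraries and not between genes.

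The genes behind the gate and the LEC identity were present in every meningeal library. Prox1 stood at 1332, 716 and 1212 CPM in Meninges replicates 1 to 3, between 1666 and 2022 CPM in diaphragm and between 1799 and 2042 CPM in skin. All 3 meningeal values lay below the 6 peripheral ones, but the difference did not pass the test (edgeR adjusted p = 0.112, log2 fold change -0.78 with a standard error of 0.23). Flt4 overlapped between the groups (3338, 1353 and 2467 CPM against 2148 to 3646 CPM, log2 fold change -0.29, adjusted p = 0.745). Pdpn overlapped as well (log2 fold change -0.17, adjusted p = 0.941), and Pecam1 was lower in each meningeal library without passing (553, 218 and 504 CPM against 637 to 955 CPM, adjusted p = 0.22). Ptprc, which encodes CD45, was at 2.69, 3.53 and 0.0793 CPM in meninges and reached 118 CPM in Diaphragm replicate 2. Meninges replicate 2 had the lowest level of Prox1, Flt4, Pdpn and Pecam1 among the 9 libraries, except that Diaphragm replicate 1 was lower for Pdpn.

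Across all genes, 177 were higher in meninges than in the average of both peripheral tissues (1.19% of those tested) and 79 were lower (0.533%), 1.73% in all (edgeR quasi-likelihood test, Benjamini-Hochberg adjusted). The lower genes were mostly abundant transcripts that fell by a moderate factor. Their median average level was 7.64 log2 CPM. Counts in every tissue were present for 76 of 79, beside 13713 of all 14831 genes tested. The median log2 fold change of these 76 was -2.39. The higher genes were more often near absence in the periphery. Of the 177, 23 had no count in either peripheral tissue, 10 none in diaphragm alone and 36 none in skin alone. Among all 14831 genes tested these numbers were 85, 341 and 576. The 108 higher genes with counts in every tissue had a median log2 fold change of 4.55. The median average level of the higher genes was 4.95 log2 CPM. The median log2 fold change over all genes tested was 0.13, and their median average level was 3.9 log2 CPM. Each count of called list members below is to be read beside the shares of 1.19% higher and 0.533% lower.

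**Figure D1:**
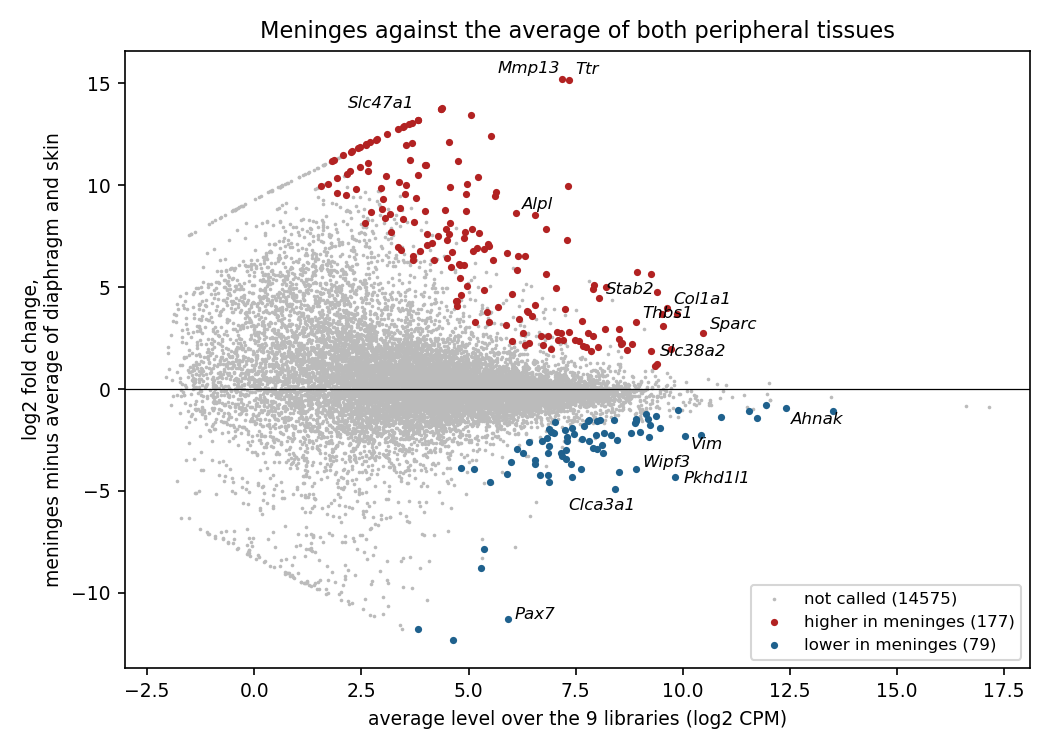
Log2 fold change of each gene (meninges minus the average of diaphragm and skin, y axis) against its average level (log2 CPM, x axis), with called genes in red (177 higher) and blue (79 lower). The lower genes sit mostly at high levels and moderate differences, and the higher genes spread to low levels and large fitted differences; the diagonal lines at the edges are genes without a count in a tissue, whose fitted values depend on the prior count and are no bounds.

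Because the contrast averages 2 tissues, a called gene need not differ from both. Of the higher genes, 139 had all 3 meningeal libraries above all 6 peripheral ones, a pattern that 4.59% of all genes tested show. In the others the meningeal libraries lay clear of skin only (24 genes), of diaphragm only (10) or of neither (4). Ptpru, a receptor tyrosine phosphatase, is an example: its meningeal mean of 33.6 CPM equalled the diaphragm mean of 33.6 CPM, skin had no count, and the gene was called. Ptpru was chosen after its values were seen. Between diaphragm and skin themselves 6 genes were called (0.0405%). When the 6 peripheral libraries were treated as 1 group, which weighs their levels and not their log means, 76 higher and 44 lower genes were called. Of the 79 lower genes, 75 lay clear of both tissues, against 2.16% of all genes for that direction, and the median absolute difference between diaphragm and skin was 0.67 on the log2 scale for those with counts in every tissue, against 2.16 for the higher genes. Being called already favours such separation, and nothing is read from these counts. In either direction, 6.76% of all genes tested had no overlap.

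Libraries of the meninges also differed among themselves. Meninges replicate 1 was the lowest of the 3 for 124 of the 177 higher genes, against 5432 of all 14831, and the highest of the 3 for 48 of the 79 lower genes, against 4945 of all genes. The median coefficient of variation over the meningeal libraries was 63.1% for higher genes and 36.1% for lower genes, beside 66.7% for all genes tested. With any single library left out, 40 of the higher and 22 of the lower genes were called each time. Without Meninges replicate 2 the counts were 50 higher and 33 lower, and without Meninges replicate 3 they were 62 and 25.

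Several genes called lower encode membrane, cytoskeletal and matrix proteins. Pkhd1l1, a large fibrocystin-like membrane protein, was at 112, 26.2 and 62.6 CPM in meninges, 1381, 1182 and 1088 CPM in diaphragm and 1426, 1160 and 1650 CPM in skin. The groups were far apart, and the level was 19.6-fold lower in meninges (edgeR adjusted p = 0.000427, log2 fold change -4.29 with a standard error of 0.44). Wipf3, a WASP-interacting regulator of actin assembly, stood at 48.3, 27.5 and 57 CPM in meninges, 432 to 518 CPM in diaphragm and 818 to 1097 CPM in skin, 15-fold lower (log2 fold change -3.90, standard error 0.34, adjusted p = 0.000194). Wipf3 and Pkhd1l1 were the only genes called lower when Meninges replicate 1, which had the highest Pkhd1l1 level of the 3, was the only meningeal library (log2 fold changes -3.78 and -3.55), an alternative chosen after seeing the data. Tnxb, the matrix glycoprotein tenascin-X, was at 42.3, 34.5 and 17.3 CPM in meninges and 375 to 846 CPM in the periphery (log2 fold change -4.06, standard error 0.42, adjusted p = 0.000427). Clca3a1, of the chloride channel accessory family and known as a surface marker of LECs, was at 35.6, 3.59 and 10.7 CPM against 299 to 748 CPM (log2 fold change -4.92, standard error 0.70, adjusted p = 0.00304). The Clca3a1 level is uncertain because the gene belongs to a cluster of near-identical copies among which reads may have been divided.

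Tgfbi, a secreted matrix protein induced by TGF-beta, was lower at 43.5, 31.6 and 49.3 CPM against 169 to 328 CPM in diaphragm and 413 to 738 CPM in skin (log2 fold change -3.15, adjusted p = 0.00131). The intermediate filament gene Vim, chosen after its values were seen, was at 380, 215 and 269 CPM in meninges and at 1260 to 1686 CPM in all 6 peripheral libraries, 4.99-fold lower (log2 fold change -2.32, standard error 0.26, adjusted p = 0.000859). Each of these genes, Pkhd1l1, Wipf3, Tnxb, Clca3a1, Tgfbi and Vim, was called with any single library left out. In bulk libraries of sorted cells, fewer cells that express a gene and less RNA per cell cannot be told apart.

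**Figure D2:**
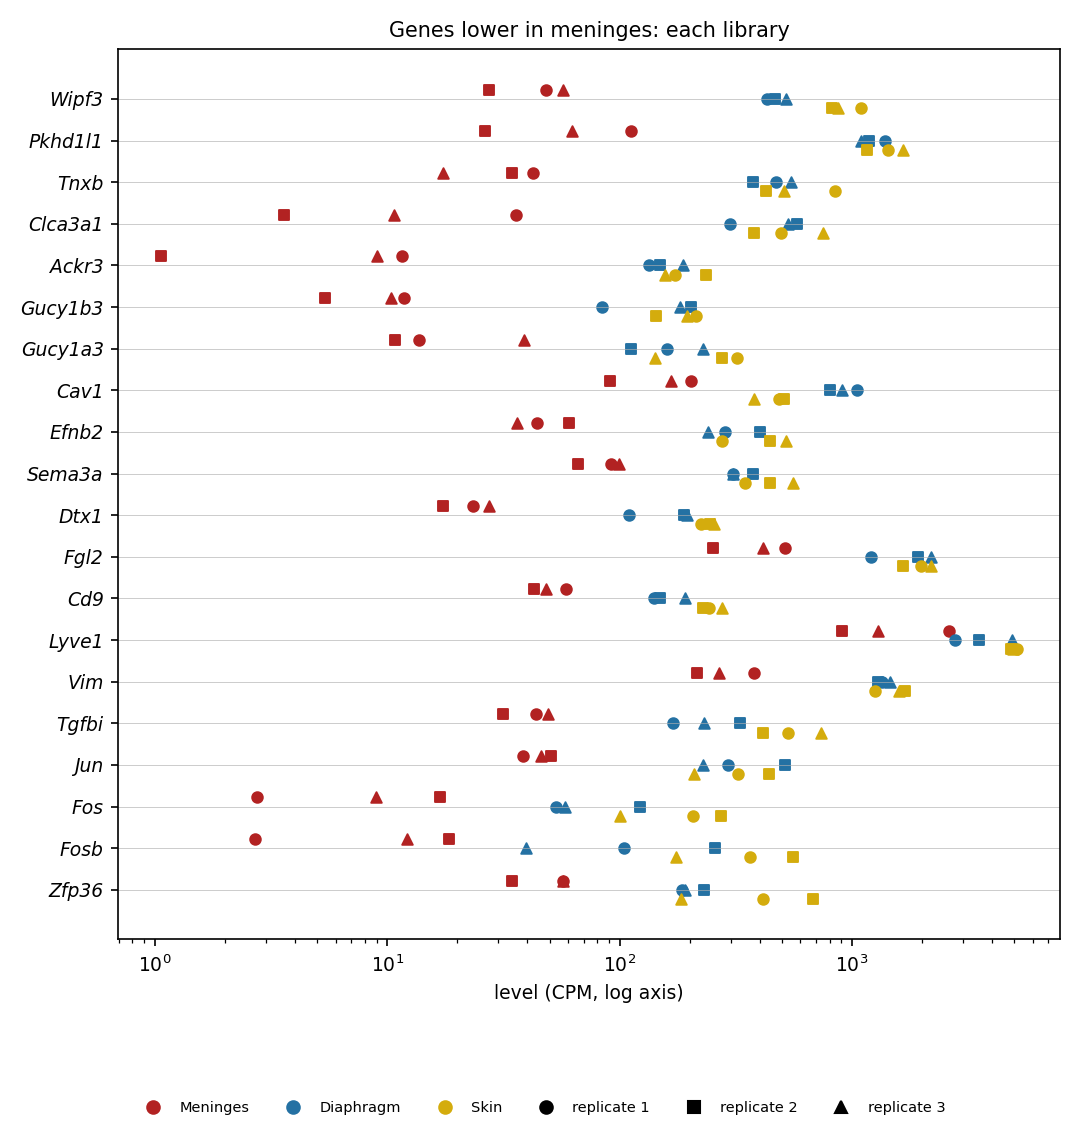
Level of 20 genes called lower in meninges (CPM, log axis) in each of the 9 libraries, with colour for the tissue and symbol for the replicate number. In every row the 3 meningeal values lie to the left of the 6 peripheral ones; for Lyve1 Meninges replicate 1 (2619 CPM) nearly reaches the lowest diaphragm library (2767 CPM).

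Part of the nitric oxide and cyclic GMP pathway was lower. In this pathway nitric oxide made by endothelial nitric oxide synthase binds soluble guanylate cyclase, which makes cyclic GMP. Both subunits of the cyclase were lower in meninges. Gucy1b3 was at 11.8, 5.37 and 10.4 CPM against 83.8 to 203 CPM in diaphragm and 143 to 213 CPM in skin (edgeR adjusted p = 0.00146, log2 fold change -4.20 with a standard error of 0.52). Gucy1a3 was at 13.6, 10.8 and 38.8 CPM against 112 to 319 CPM in the periphery (log2 fold change -3.26, standard error 0.55, adjusted p = 0.00936). Cav1, the caveolar coat protein that binds the synthase, was lower too, at 203, 90.9 and 166 CPM against 802 to 1055 CPM in diaphragm and 378 to 511 CPM in skin (log2 fold change -2.08, standard error 0.32, adjusted p = 0.00491). These 3 were the called members of 17 tested, each was called with any single library left out, and none was higher. The list median was 0.44, and without Meninges replicate 2 it was -0.081. Nos3, the synthase itself, overlapped between the groups (5.57, 0.187 and 1.61 CPM against 0.0737 to 89.3 CPM, adjusted p = 0.599).

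Ackr3, a decoy receptor that removes the chemokine CXCL12 and the peptide adrenomedullin, was the 1 called member of 9 tested genes of that axis. It was at 11.6, 1.06 and 8.99 CPM in meninges, 133 to 187 CPM in diaphragm and 157 to 234 CPM in skin, 23.7-fold lower (edgeR adjusted p = 0.00541, log2 fold change -4.57 with a standard error of 0.71), and was called with any single library left out. The adrenomedullin receptor gene Calcrl (582, 233 and 428 CPM against 377 to 746 CPM, adjusted p = 0.754) and the decoy receptor gene Ackr2 (adjusted p = 0.929) overlapped between the groups.

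Among 23 genes of collecting vessels and valves, 2 were lower and 1 higher. Efnb2, the ligand ephrin-B2, was at 43.9, 60.4 and 36.3 CPM in meninges, 240 to 400 CPM in diaphragm and 275 to 519 CPM in skin (edgeR adjusted p = 0.00185, log2 fold change -2.93 with a standard error of 0.38). Sema3a, a secreted guidance cue, was at 92, 66.4 and 99.6 CPM against 306 to 559 CPM in the periphery (log2 fold change -2.16, standard error 0.32, adjusted p = 0.00426). Both were called with any single library left out. Fat4, an atypical cadherin needed in valve formation, was higher at 187, 1306 and 911 CPM against 73.3 to 290 CPM (log2 fold change 2.44, adjusted p = 0.0218), with Meninges replicate 1 inside the peripheral range. The Fat4 call was lost without Meninges replicate 2 (adjusted p = 0.155) or 3 (adjusted p = 0.0877). Of 19 NOTCH pathway genes only Dtx1, a regulator of NOTCH, was called. It stood at 23.4, 17.3 and 27.4 CPM in meninges, 110 to 195 CPM in diaphragm and 225 to 255 CPM in skin (log2 fold change -3.14, standard error 0.41, adjusted p = 0.00185). The receptor genes Notch1 (adjusted p = 0.63) and Notch2 (adjusted p = 0.352) did not pass.

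Of 25 LEC identity genes tested, 3 were lower and 1 was higher in meninges, beside 0.533% and 1.19% of all genes tested. The list median was -0.52 beside 0.13 for all genes. Fgl2, a secreted fibrinogen-like protein, was at 514, 253 and 413 CPM in meninges against 1209 to 2196 CPM in the periphery (edgeR adjusted p = 0.00185, log2 fold change -2.24 with a standard error of 0.30). The tetraspanin gene Cd9 was at 58.7, 42.8 and 47.9 CPM against 141 to 276 CPM (log2 fold change -2.00, adjusted p = 0.0115). The Cd9 call was lost without Meninges replicate 2 (adjusted p = 0.0688) or 3 (adjusted p = 0.0834). Lyve1 was at 2619, 909 and 1287 CPM in meninges, 2767, 3513 and 4865 CPM in diaphragm and 5125, 4820 and 4926 CPM in skin (log2 fold change -1.42, standard error 0.31, adjusted p = 0.0346). Its call was lost without Meninges replicate 2 or 3, Diaphragm replicate 3 or Skin replicate 3 (adjusted p between 0.054 and 0.145). Reln, the secreted glycoprotein reelin, was below all peripheral libraries in each meningeal library and did not pass (2638, 1143 and 2013 CPM against 2833 to 4336 CPM, adjusted p = 0.0657). The summed level of the list was 22710, 10080 and 17050 CPM in Meninges replicates 1 to 3 and 20220 to 28100 CPM in the periphery. The list held 4 lower calls and a median of -0.84 without Meninges replicate 1, 1 lower call and -0.27 without replicate 2, and 1 lower call and -0.65 without replicate 3.

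The higher member was Stab2, a scavenger receptor that binds and internalises hyaluronan and is known from sinusoidal and lymph node endothelium. It was at 796, 694 and 559 CPM in meninges, 218, 44.5 and 37.4 CPM in diaphragm and 12.2, 4.55 and 11 CPM in skin. Every meningeal library exceeded every peripheral one, by 22.4-fold on the contrast (edgeR adjusted p = 0.000993, log2 fold change 4.49 with a standard error of 0.52). Stab2 was called with any single library left out and also when Meninges replicate 1 alone stood for the meninges (log2 fold change 4.70). With the 6 peripheral libraries treated as 1 group it was not called (adjusted p = 0.0823). Set against each tissue, its log2 fold change was 2.77 over diaphragm (adjusted p = 0.105) and 6.21 over skin (adjusted p = 0.00186); these 2 comparisons share the meningeal libraries. Among 16 hyaluronan and scavenger receptor genes, Stab2 and Lyve1 were the called members, in opposite directions. The related Stab1 (1148, 538 and 730 CPM against 290 to 930 CPM, adjusted p = 0.313) and the mannose receptor gene Mrc1 (492, 392 and 510 CPM against 105 to 368 CPM, adjusted p = 0.0591) did not pass.

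Further lower genes were immediate early and dissociation-induced genes. These genes encode short-lived transcription factors and mRNA decay proteins that are switched on within minutes by growth factors and stress, also during tissue digestion. Of 30 tested, 6 were lower, beside 0.533% of all genes tested, and none was higher, with a list median of -1.29. Many of them are induced through response elements close to the start site, so the 250 bases before the start of 2 called members, and of 2 other called genes that hold an AP-1 site (the element bound by FOS and JUN), are printed from RefSeq (GRCm38.p6), written 5′ to 3′ towards the start site with the matched element in capitals. The 4 were chosen after their values were seen. Fos lies at chr12:85473640-85473889 on the + strand, with the cAMP response element core TGACGT 66 to 61 bases upstream of the start. Zfp36 lies at chr7:28379229-28379478 on the - strand, with a CArG box, the element of serum response factor, at 58 to 49 bases. Mmp13 (chr9:7272264-7272513, + strand) was higher in meninges and has the AP-1 site TGACTCA at 35 to 29 bases. Tnxb (chr17:34670285-34670534, + strand) was lower and has TGAGTCA at 55 to 49 bases.
Fos: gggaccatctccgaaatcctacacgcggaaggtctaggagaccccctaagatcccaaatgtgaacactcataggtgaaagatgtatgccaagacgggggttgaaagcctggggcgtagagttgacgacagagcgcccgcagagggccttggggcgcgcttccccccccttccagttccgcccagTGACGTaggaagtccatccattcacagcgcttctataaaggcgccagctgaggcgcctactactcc
Zfp36: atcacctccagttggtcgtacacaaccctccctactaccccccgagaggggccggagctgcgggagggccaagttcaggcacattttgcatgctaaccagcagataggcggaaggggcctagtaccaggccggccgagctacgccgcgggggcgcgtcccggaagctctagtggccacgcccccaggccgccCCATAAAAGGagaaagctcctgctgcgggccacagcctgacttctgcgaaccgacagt
Mmp13: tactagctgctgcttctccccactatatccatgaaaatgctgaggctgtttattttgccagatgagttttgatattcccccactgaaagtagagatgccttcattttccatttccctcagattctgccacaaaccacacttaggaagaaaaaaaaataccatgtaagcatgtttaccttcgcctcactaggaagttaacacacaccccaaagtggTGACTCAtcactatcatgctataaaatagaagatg
Tnxb: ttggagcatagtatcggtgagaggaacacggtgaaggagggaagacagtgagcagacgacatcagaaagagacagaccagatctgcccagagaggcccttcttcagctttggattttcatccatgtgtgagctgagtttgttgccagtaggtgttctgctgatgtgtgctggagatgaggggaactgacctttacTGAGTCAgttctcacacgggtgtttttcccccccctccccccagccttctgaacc

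Motifs were searched on both strands of these windows, and the matches are a description. The AP-1 motif TGANTCA was present in 15 of 152 promoters of higher genes (9.87%), in 4 of 77 of lower genes (5.19%) in 4.48% of the promoters of all genes tested and in 6.75% of all promoters in the table. TGACGT was present in 5.92%, 1.3%, 9.6% and 6.47% of them in the same order, and the CArG box in 0.658%, 1.3%, 1.18% and 1.47%. A gene can have several start sites, and each counted as a promoter. Promoters were matched for 126 of the 177 higher genes, 60 of the 79 lower genes and 9928 of the 14831 genes tested. Of the 6 called immediate early genes, Fos held a TGACGT and Zfp36 a CArG box, and no other of these letters was found in the 250 bases of the 6.

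Jun, the AP-1 subunit, was at 38.3, 50.9 and 45.8 CPM in meninges, 291, 516 and 229 CPM in diaphragm and 323, 440 and 210 CPM in skin, 7.44-fold lower (edgeR adjusted p = 0.00299, log2 fold change -2.89 with a standard error of 0.41). Its partner Fos was at 2.75, 16.9 and 8.96 CPM in meninges, 53.1, 122 and 58 CPM in diaphragm and 207, 273 and 101 CPM in skin (log2 fold change -3.68, standard error 0.69, adjusted p = 0.0149). Fosb was at 2.69, 18.5 and 12.1 CPM against 39.5 to 555 CPM (log2 fold change -4.31, adjusted p = 0.0137). Zfp36, which encodes the mRNA decay factor tristetraprolin, was at 57.1, 34.4 and 56.8 CPM against 183 to 678 CPM (log2 fold change -2.57, adjusted p = 0.0104). The groups did not overlap for any of these 4. The Kruppel-like factor genes Klf6 (log2 fold change -1.34, adjusted p = 0.0155) and Klf4 (-2.44, adjusted p = 0.0369) completed the called members. Jun was called with any single library left out. Fos (adjusted p = 0.0848) and Fosb (0.0667) were lost without Meninges replicate 3, Zfp36 (0.0628) without Meninges replicate 2, Klf6 without Meninges replicate 1 (0.0554) or 2 (0.07), and Klf4 in 6 of 9 such fits. Egr1, at 98.2, 181 and 384 CPM in meninges, 735 to 1068 CPM in diaphragm and 219 to 741 CPM in skin, did not pass (adjusted p = 0.152). The time from tissue collection to lysis is not stated in the labels, and its part was not tested.

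Several genes of the insulin-like growth factor axis were higher. Its ligands signal through a shared receptor, and the binding proteins hold the ligands in the matrix. Of 16 members tested 5 were higher, beside 1.19% of all genes tested, and none lower, with a median of 1.47. The ligand gene Igf2 was at 579, 707 and 1216 CPM in meninges, 321, 139 and 160 CPM in diaphragm and 75.3, 51.4 and 47.6 CPM in skin (edgeR adjusted p = 0.000993, log2 fold change 2.93 with a standard error of 0.34). H19, the non-coding RNA from the same imprinted locus, was at 212, 470 and 481 CPM against 43.1 to 64.5 CPM in diaphragm and 4.34 to 27.2 CPM in skin (log2 fold change 3.93, standard error 0.55, adjusted p = 0.00267). Both exceeded the periphery in every meningeal library and were called with any single library left out. The binding protein genes Igfbp7 (420, 365 and 436 CPM against 40.5 to 213 CPM, log2 fold change 2.37, adjusted p = 0.0115) and Igfbp4 (388, 380 and 577 CPM against 61.5 to 165 CPM, log2 fold change 1.89, adjusted p = 0.0126) were also higher, and both were lost without Meninges replicate 3 (adjusted p = 0.0549 and 0.102). Igf1 was called (log2 fold change 2.95, adjusted p = 0.0446) with 75.2 CPM in Meninges replicate 1 and 1105 and 877 CPM in the other two, against 19.1 to 218 CPM. Its sign turned when Meninges replicate 1 alone stood for the meninges (log2 fold change -0.24), and the call was lost in 6 of the 9 fits without 1 library. Fibroblast markers, described below, had the same order among the meningeal libraries, and their part in the Igf1 result was not tested.

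Other genes higher in every meningeal library have roles in matrix, lysosomes and transport. Thbs1, the adhesive glycoprotein thrombospondin 1, was at 885, 1130 and 1593 CPM in meninges, 91.1 to 189 CPM in diaphragm and 67 to 175 CPM in skin, 9.93-fold higher (edgeR adjusted p = 0.000536, log2 fold change 3.31 with a standard error of 0.36). Chosen after their values were seen, the lysosomal protease gene Ctsd (847, 642 and 940 CPM against 85.8 to 246 CPM, log2 fold change 2.26, adjusted p = 0.00185), the glutamine transporter gene Slc38a2 (881, 1247 and 1437 CPM against 222 to 432 CPM, log2 fold change 1.88, adjusted p = 0.00414) and the hyaluronan-binding inter-alpha-trypsin inhibitor gene Itih5 (947, 572 and 934 CPM against 158 to 287 CPM, log2 fold change 1.94, adjusted p = 0.00479) differed likewise. The ranges of diaphragm and skin overlapped for each of these 4, and each was called with any single library left out.

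Ttr was the gene with the smallest adjusted p. It encodes transthyretin, a carrier of thyroid hormone and retinol that is secreted by the choroid plexus epithelium in the brain and by the liver. It was at 510, 529 and 429 CPM in meninges, with 3 counts over the diaphragm libraries together and none in skin (edgeR adjusted p = 5.66e-07). It was called in every alternative that tested it. Of 10 genes of thyroid hormone transport and action tested, Ttr, Dio2 and Slco1a4 were called higher. Dio2, the deiodinase that activates thyroid hormone, was at 14.9, 164 and 235 CPM in meninges, 0.0369, 16.1 and 9.42 CPM in diaphragm and without a count in skin (adjusted p = 0.0104), so that Meninges replicate 1 lay below Diaphragm replicate 2. Dio2 was not called with the periphery treated as 1 group (adjusted p = 0.333). The transporter gene Slco1a4 (33.9, 0.531 and 7.53 CPM) was lost with any 1 library left out (adjusted p between 0.0667 and 0.113).

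Ttr is itself a marker of choroid plexus epithelium, and other such markers were also higher. Of 14 tested, 4 were called higher (Ttr, Slc4a10, Enpp2 and Kl), beside 1.19% of all genes tested. No overlap in that direction was seen for 8 of them, beside 4.59% of all genes tested. The summed level was 1169, 1038 and 1000 CPM in Meninges replicates 1 to 3 against 51.3 to 195 CPM in the periphery. Without Ttr the sum was 657, 499 and 561 CPM against 51.3 to 195 CPM, with 3 of 13 called. The bicarbonate transporter gene Slc4a10 was at 223, 73.7 and 131 CPM in meninges, without a count in diaphragm and at 15, 5.8 and 0.0457 CPM in skin (edgeR adjusted p = 0.00479), and was not called with the periphery treated as 1 group (adjusted p = 0.249). The Enpp2 call was lost in 4 of the 9 fits with 1 library left out (adjusted p between 0.055 and 0.112) and that of Kl in 8 (0.059 to 0.226). The list median was 6.78, or 5.24 with members that lacked a count in a tissue at their bound. The sum was carried by Ttr, Enpp2 and Slc4a10. Of defining markers that the filter removed, Folr1 had 80 counts in Meninges replicate 1, none in the other two and 1 in diaphragm. Otx2 had 6, 318 and 366 counts in Meninges replicates 1 to 3 and none elsewhere. Kcnj13 overlapped between the groups (10.5, 3.84 and 6.42 CPM against 0 to 6.2 CPM). The part of such cells in the Ttr result was not tested.

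**Figure D3:**
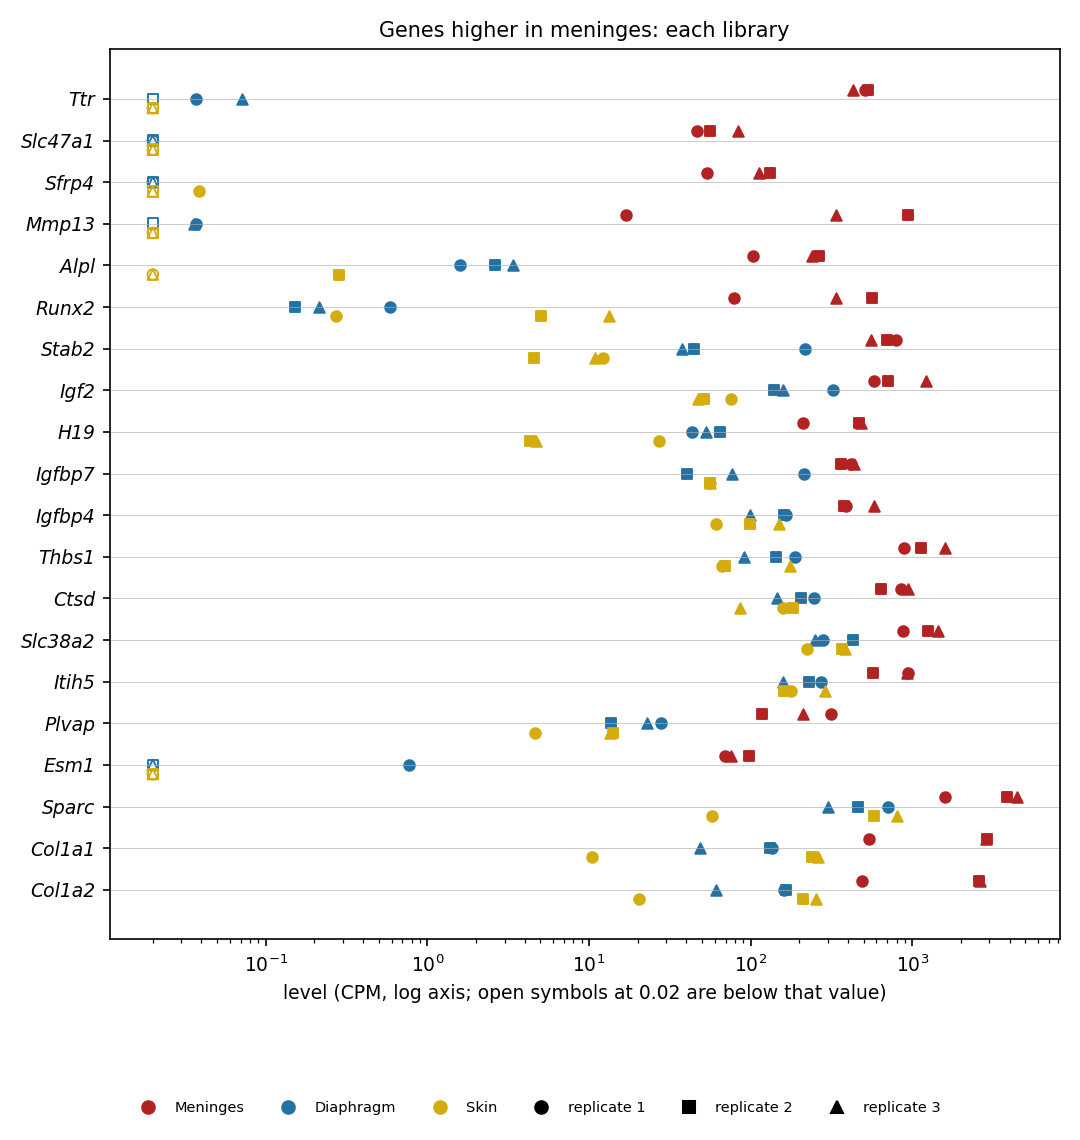
Level of 20 genes called higher in meninges (CPM, log axis) in each of the 9 libraries, with colour for the tissue and symbol for the replicate number; open symbols mark values under 0.02 CPM. In every row the meningeal values lie to the right of the peripheral ones, closely grouped for Ttr, Stab2 and Igfbp7 and with Meninges replicate 1 lowest for Mmp13, Runx2, Sparc, Col1a1 and Col1a2.

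Several genes had counts in every meningeal library and none in either peripheral tissue. Slc47a1, an exporter of organic cations, was at 46.7, 55.8 and 83.6 CPM, a log2 difference of at least 10.7 when 3 counts are put in each peripheral group (edgeR adjusted p = 0.00185). Ndnf, a secreted neurotrophic factor, was at 19.6, 109 and 55 CPM, at least 10.6 higher (adjusted p = 0.00263). Tnn, the matrix protein tenascin-N, was at 17.9, 30.6 and 28.5 CPM, at least 9.37 higher (adjusted p = 0.0137), and its call was lost without Meninges replicate 2 (adjusted p = 0.0692) or 3 (adjusted p = 0.0733). Slc47a1 and Ndnf were called with any single library left out. Sfrp4, a secreted inhibitor of WNT ligands, was at 53.4, 132 and 113 CPM with a single count in the periphery (adjusted p = 0.000293). Mmp13, the collagenase whose promoter is printed above, was at 17, 947 and 335 CPM with 2 counts in the periphery (adjusted p = 0.000293). Both were called with any single library left out.

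Of 26 WNT pathway genes 3 were higher and 1 lower, with a median of 1.65, or 1.22 with members that lacked a count in a tissue set to their bound, and it ranged from 1.11 to 2.70 with 1 library left out. Beside Sfrp4 these were the intracellular inhibitor gene Nkd2 (14.7, 223 and 36.7 CPM in meninges, at most 5.05 CPM in the periphery, edgeR adjusted p = 0.0222) and the receptor gene Fzd2 (5.2, 9.12 and 24.8 CPM, adjusted p = 0.0329). The receptor gene Fzd6 was lower (44, 33.8 and 32.6 CPM against 74.5 to 322 CPM, log2 fold change -2.09, adjusted p = 0.0461). Nkd2 was lost without Meninges replicate 2 (adjusted p = 0.184), Fzd2 in each of 9 fits with 1 library left out (adjusted p between 0.055 and 0.173) and Fzd6 in 6 of them (0.0673 to 0.184). The central effector gene Ctnnb1 overlapped between the groups (399, 480 and 491 CPM against 271 to 672 CPM).

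Blood endothelial markers were tested because the gate leaves the exclusion of blood vessels to podoplanin. Of 20, 5 were higher and 1 lower, beside 1.19% and 0.533% of all genes tested. The median was 1.66, or 1.09 without Meninges replicate 1. Plvap, which forms the diaphragms of endothelial fenestrae, was at 314, 117 and 212 CPM in meninges, 13.7 to 28 CPM in diaphragm and 4.64 to 14.2 CPM in skin, 14.1-fold higher (edgeR adjusted p = 0.00185, log2 fold change 3.82 with a standard error of 0.50). Esm1, a proteoglycan of endothelial tip cells and the 1 called of 18 VEGF signalling genes, was at 69.7, 97.6 and 75.5 CPM in meninges, 0.774 CPM in Diaphragm replicate 1 and without a count in the other 5 peripheral libraries (adjusted p = 0.00541). The water channel gene Aqp1 was at 1180, 535 and 752 CPM in meninges, 369 to 595 CPM in diaphragm and 30.5 to 103 CPM in skin (log2 fold change 2.23, adjusted p = 0.00725), overlapping with diaphragm, and was not called with the periphery treated as 1 group (adjusted p = 0.428). Plvap, Esm1 and Aqp1 were called with any single library left out. The transcription factor gene Sox17 (30, 27.1 and 51.6 CPM against 0 to 7.39 CPM, adjusted p = 0.0213) was lost without Meninges replicate 2 or 3 or Diaphragm replicate 3 (adjusted p between 0.0514 and 0.119). The kinase gene Bmx was lower (10.4, 1.97 and 1.56 CPM against 28.2 to 127 CPM, log2 fold change -4.18, adjusted p = 0.0253) and was lost without Meninges replicate 2 (adjusted p = 0.125) or 3 (0.113). The summed level of the list was 3680, 1509 and 2178 CPM in meninges and 1531 to 2713 CPM in the periphery, so the sums overlapped. Selp, Vwf, Emcn and Cldn5 were among the members that did not pass. The part of blood endothelial cells in these results was not tested.

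Several extracellular matrix genes were higher. Col1a1 and Col1a2 are also on the list of fibroblast markers, so the sums of that list given below are not independent of them. Of 21 collagen genes 5 were higher, beside 1.19% of all genes tested, and none lower, with a median of 2.46. Col1a1 was at 543, 2917 and 2847 CPM in meninges, 48.3 to 137 CPM in diaphragm and 10.4 to 260 CPM in skin (edgeR adjusted p = 0.0126, log2 fold change 3.97 with a standard error of 0.71). Col1a2, which encodes the partner chain, was at 488, 2574 and 2614 CPM against 20.3 to 254 CPM (log2 fold change 3.71, adjusted p = 0.00919). Sparc, a collagen-binding matricellular protein, was at 1588, 3883 and 4422 CPM against 57.4 to 801 CPM (log2 fold change 2.76, adjusted p = 0.0216) and was lost without Meninges replicate 2 (adjusted p = 0.071) or 3 (0.09). For each of these genes Meninges replicate 1 was the lowest meningeal library and still above the whole periphery. Of 22 metalloproteinase and inhibitor genes, Mmp13 and the procollagen protease gene Adamts2 were higher and the inhibitor gene Timp3 was lower (1940, 1498 and 1710 CPM against 2618 to 5213 CPM, log2 fold change -1.06, adjusted p = 0.0155). The Timp3 call was lost without Meninges replicate 2 (adjusted p = 0.0635) or 3 (0.0826).

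Fibroblast markers summed to 2942, 11410 and 11160 CPM in Meninges replicates 1 to 3 and to 1449 to 2684 CPM in the periphery. Called higher were 5 of 21 (Col1a1, Col1a2, Prrx1, Serpinf1 and Thbs2), beside 1.19% of all genes tested, with a median of 2.70. The Prrx1 call was lost without Meninges replicate 2 (edgeR adjusted p = 0.0602). Dcn (118, 670 and 854 CPM against 30.6 to 554 CPM), Lum, Pdgfra and Col3a1 did not pass. Markers of meningeal and arachnoid mesenchyme summed to 539, 1916 and 1709 CPM against 167 to 484 CPM, with 7 of 15 called higher: Slc47a1, Alx4, Foxd1, Zic4, Zic1, Ptgds and Mgp. The homeobox gene Alx4 was at 4.6, 141 and 37.9 CPM, and the transcription factor genes Foxd1 (4.32, 79.9 and 30.3 CPM) and Zic4 (6.7, 56.3 and 46.9 CPM) were likewise without a count in the periphery. Without Meninges replicate 2 the calls were lost for Alx4 (edgeR adjusted p = 0.0878), Foxd1 (0.111), Zic4 (0.0641), Zic1 (0.0773) and Mgp (0.0626), and 2 of 16 markers tested were called. Zic4 (0.0524) and Zic1 (0.0937) were also lost without Meninges replicate 3. Ptgds overlapped with skin (60.7, 4.94 and 112 CPM against 0 to 18.9 CPM in the periphery). Its call was lost in 6 of the 9 fits with 1 library left out (edgeR adjusted p between 0.0567 and 0.175). The list median was 6.17, or 5.02 with members that lacked a count in a tissue at their bound. When Meninges replicate 1 alone stood for the meninges, no fibroblast or mesenchymal marker was called, and the medians were 1.07 and 6.79; in that fit 3 genes were called higher and 2 lower in all. The part of these cells in the collagen and matrix results was not tested.

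Bone markers had the same order among the meningeal libraries, with sums of 196, 1311 and 774 CPM against 0.387 to 187 CPM in the periphery. Of 8 tested, 4 were higher (Alpl, Runx2, Spp1 and Sp7), beside 1.19% of all genes tested. The median was 6.74, or 4.26 without Meninges replicate 2. Alpl, tissue-nonspecific alkaline phosphatase, was at 103, 265 and 241 CPM in meninges, 1.58 to 3.4 CPM in diaphragm and at most 0.284 CPM in skin (edgeR adjusted p = 0.000384). Runx2, the transcription factor of osteoblasts, was at 79.1, 563 and 339 CPM against 0.151 to 13.4 CPM (edgeR adjusted p = 0.0013, log2 fold change 7.85 with a standard error of 0.94). Alpl and Runx2 were called with any single library left out. Spp1 (1.91, 228 and 24.8 CPM against 0 to 43.7 CPM) was lost without Meninges replicate 2 (adjusted p = 0.255). Sp7 was lost with any 1 library left out. The osteoblast gene Ibsp, which the filter removed, had 0, 2279 and 470 counts in Meninges replicates 1 to 3 and none elsewhere, while Bglap and Dmp1 had 3 counts each. Neither RNA of such cells nor expression of these genes in LECs was tested.

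Skeletal muscle markers went the other way, with sums of 28.8 to 69.5 CPM in meninges, 760 to 1748 CPM in diaphragm and 163 to 287 CPM in skin. Of 18 tested, Pax7, Neb and Ttn were called lower, beside 0.533% of all genes tested. The median was -5.88, or -4.57 with bounds, and -3.22 without Skin replicate 2. None of the 3 was called without any 1 of the meningeal libraries. Pax7, which encodes a transcription factor of satellite cells, had no count in meninges and stood at 288, 165 and 91.9 CPM in diaphragm and 0, 1.99 and 0 CPM in skin (edgeR adjusted p = 0.0281). It was not called without Skin replicate 2, the only skin library with counts. Mesothelial markers reached 376 to 1715 CPM in diaphragm, against 211 to 512 CPM in skin and 89 to 255 CPM in meninges, and none of 10 was called. For 29 tested genes without a count in meninges and in 1 peripheral tissue, the mesothelial marker Muc16 among them, the contrast of log means could not be estimated, and they could not be called. Leukocyte markers overlapped between the groups (45.3 to 97.7 CPM against 0.658 to 135 CPM, 0 of 7 called). Of the markers that the filter removed, the mast cell protease gene Mcpt4 had 1795 counts in Meninges replicate 2, 1 in replicate 3 and none elsewhere, and the T cell gene Cd3e had 555 in Diaphragm replicate 3 alone.

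**Figure D4:**
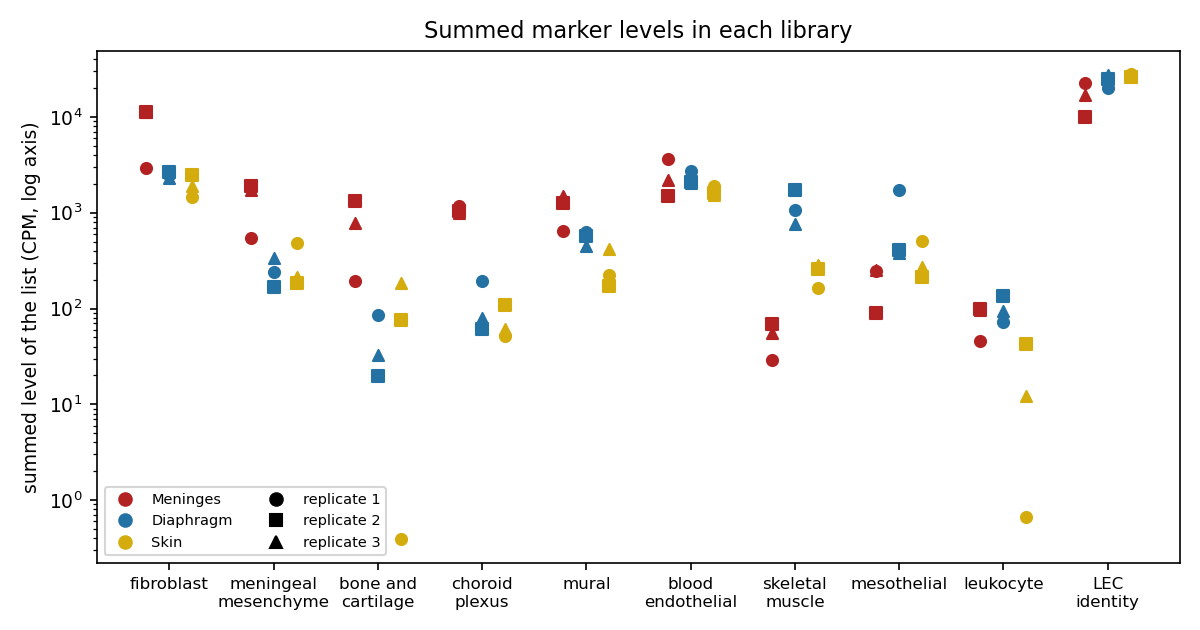
Summed level of each marker list (CPM, log axis) in the 9 libraries, by tissue and replicate number. Fibroblast, meningeal mesenchyme, bone and choroid plexus sums are highest in the 3 meningeal libraries, with Meninges replicate 1 lowest of them for the first 3 lists but not for choroid plexus, and muscle sums are lowest there.

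In other pathways few members were called. Of 25 interferon response genes 24 had a positive log2 fold change, but only 1, Oasl2, was called. The list median was 0.88, or up to 1.53 without Skin replicate 3, beside 0.13 for all genes tested. Signs within this list and the next were not tested. Interferon sums overlapped with diaphragm, at 938 to 1141 CPM in meninges, 544 to 1099 CPM in diaphragm and 347 to 415 CPM in skin. So did antigen presentation sums, at 1613 to 2499, 1286 to 1623 and 654 to 858 CPM in the same order. Oasl2, an interferon-induced relative of the oligoadenylate synthetases, was at 83.8, 76.6 and 77.6 CPM in meninges, 10.2, 25.9 and 68.1 CPM in diaphragm and without a count in skin (edgeR adjusted p = 0.00185), and was not called with the periphery treated as 1 group (adjusted p = 0.843). Of 20 antigen presentation genes 19 had a positive sign and 1 was called, B2m, the light chain of class I molecules (1402, 666 and 1101 CPM against 578 to 786 CPM in diaphragm and 241 to 360 CPM in skin, log2 fold change 1.24, adjusted p = 0.0315). The B2m call was lost in 6 of the 9 fits with 1 library left out (adjusted p between 0.0628 and 0.133). Fgfr2, an FGF receptor, was the 1 called of 14 FGF pathway genes, at 28.3, 403 and 330 CPM in meninges, at most 0.0379 CPM in diaphragm and 0, 16.2 and 66.3 CPM in skin (adjusted p = 0.0104), so that Meninges replicate 1 lay below Skin replicate 3. With the periphery treated as 1 group Fgfr2 was not called (adjusted p = 0.508). Itga11, a collagen-binding integrin (10.1, 241 and 161 CPM, at most 0.417 CPM in the periphery, adjusted p = 0.00265), was the 1 called of 20 integrin genes. Of 7 NADPH and dual oxidase genes 1 was higher (Nox3) and 1 lower. Nox3 was lost in 5 of the 9 fits with 1 library left out (adjusted p between 0.0515 and 0.162). The lower one was Duox2, which makes hydrogen peroxide (24, 0.625 and 23.7 CPM against 95.7 to 599 CPM, log2 fold change -3.92, adjusted p = 0.0347). Its call was lost without Meninges replicate 1 (adjusted p = 0.0585) or 3 (0.0983).

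Transcription factor and guidance genes were also among those called. Glis3, a zinc finger factor, was at 8.55, 8.16 and 17.6 CPM in meninges against 64 to 130 CPM in diaphragm and 132 to 229 CPM in skin (log2 fold change -3.48, edgeR adjusted p = 0.00502). The scaffold gene Lrrc1 was at 14.2, 22.7 and 15.4 CPM against 45.4 to 135 CPM in diaphragm and 200 to 536 CPM in skin (log2 fold change -3.43, adjusted p = 0.00479). Both were called with any single library left out. Casz1, a zinc finger factor (2.19, 3.69 and 1.22 CPM against 10.1 to 160 CPM, adjusted p = 0.0313), was lost without any 1 meningeal library or Skin replicate 3 (adjusted p between 0.0695 and 0.141). Nfatc2, a calcium-regulated factor, was lost in all 9 such fits. Of 37 semaphorin, ephrin and plexin genes, Efnb2, Sema3a and Sema6a were lower. Sema6a was at 591, 516 and 497 CPM against 804 to 882 CPM in diaphragm and 1103 to 1858 CPM in skin (log2 fold change -1.05, adjusted p = 0.0415), and it was lost in 8 of the 9 fits with 1 library left out (adjusted p between 0.0551 and 0.174). The ephrin receptor genes Epha3 (11.1, 59.6 and 194 CPM against 0 to 4.26 CPM, adjusted p = 0.0253) and Epha7 (17.5, 55.3 and 62 CPM against 0 to 7.12 CPM, adjusted p = 0.0415) were higher. Without Meninges replicate 2 both were lost (adjusted p = 0.0633 and 0.138), as they were without Meninges replicate 3 (0.195 and 0.142). The list median was 1.42, and 0.91 without Meninges replicate 2.

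Of 16 YAP and TAZ target genes 1 was higher, the matricellular gene Ctgf, at 172, 213 and 280 CPM against 15.2 to 42.5 CPM in diaphragm and 96.5 to 130 CPM in skin (log2 fold change 1.97, edgeR adjusted p = 0.0191, lost without Meninges replicate 2 or 3 with adjusted p = 0.0781 and 0.142). Of 33 TGF-beta and BMP genes 1 was higher, the BMP antagonist gene Grem1, and it was lost with any 1 library left out. Of 19 laminin, basement membrane and matricellular genes Thbs1, Thbs2 and Sparc were higher and Tnxb lower, with a median of 0.61, or 0.39 without Meninges replicate 1. Thbs2 was not called with the periphery treated as 1 group (adjusted p = 0.237). Of 20 actin regulators Wasf3 was higher and Wipf3 lower, and the Wasf3 call was lost in 7 of the 9 fits with 1 library left out (adjusted p between 0.0721 and 0.183). Of 20 chemokine and leukocyte trafficking genes Clca3a1 was lower. Of 9 mitochondrially encoded genes 1 was lower, the cytochrome oxidase subunit gene COX1 (log2 fold change -1.05, adjusted p = 0.0312), and its call ended without Meninges replicate 2 (0.112) or 3 (0.124) and without Skin replicate 3 (0.0517).

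No member passed in the lists for endothelial junctions (20 tested), glycolysis (21), fatty acid uptake and oxidation (24), the cell cycle (14), HOX genes (16) or cytosolic ribosomal proteins (34). In that order, their median log2 fold changes were 0.21, 0.30, -0.17, 0.93, -2.10 and -0.33. Without Meninges replicate 1 the cell cycle median was -0.175, that of HOX genes -3.92 and that of fatty acid genes -0.52. Without Meninges replicate 3 the junction and glycolysis medians were 0.065 and 0.069. Nor did any member pass in the marker lists of mural cells (13 tested), nerve and glia (12), red cells and platelets (6), epidermis (3) or adipocytes (3). Mural markers summed to 652, 1275 and 1482 CPM in meninges and 173 to 635 CPM in the periphery, with a median of 2.46. The nerve and glia median was 6.88, or 5.42 with members that lacked a count in a tissue at their bound. It ran from 5.34 to 7.68 with 1 library left out. Of these 12 markers, 5 lay above all peripheral libraries and 1 below, beside 4.59% and 2.16% of all genes tested. Their sums overlapped, at 191, 655 and 585 CPM in meninges and 253 to 947 CPM in the periphery. The junction cadherin gene Cdh5 was at 1183, 312 and 852 CPM in meninges and 706 to 988 CPM in the periphery (edgeR adjusted p = 0.95, log2 fold change -0.13 with a standard error of 0.34). A p that misses the threshold does not show that levels were alike.

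**Figure D5:**
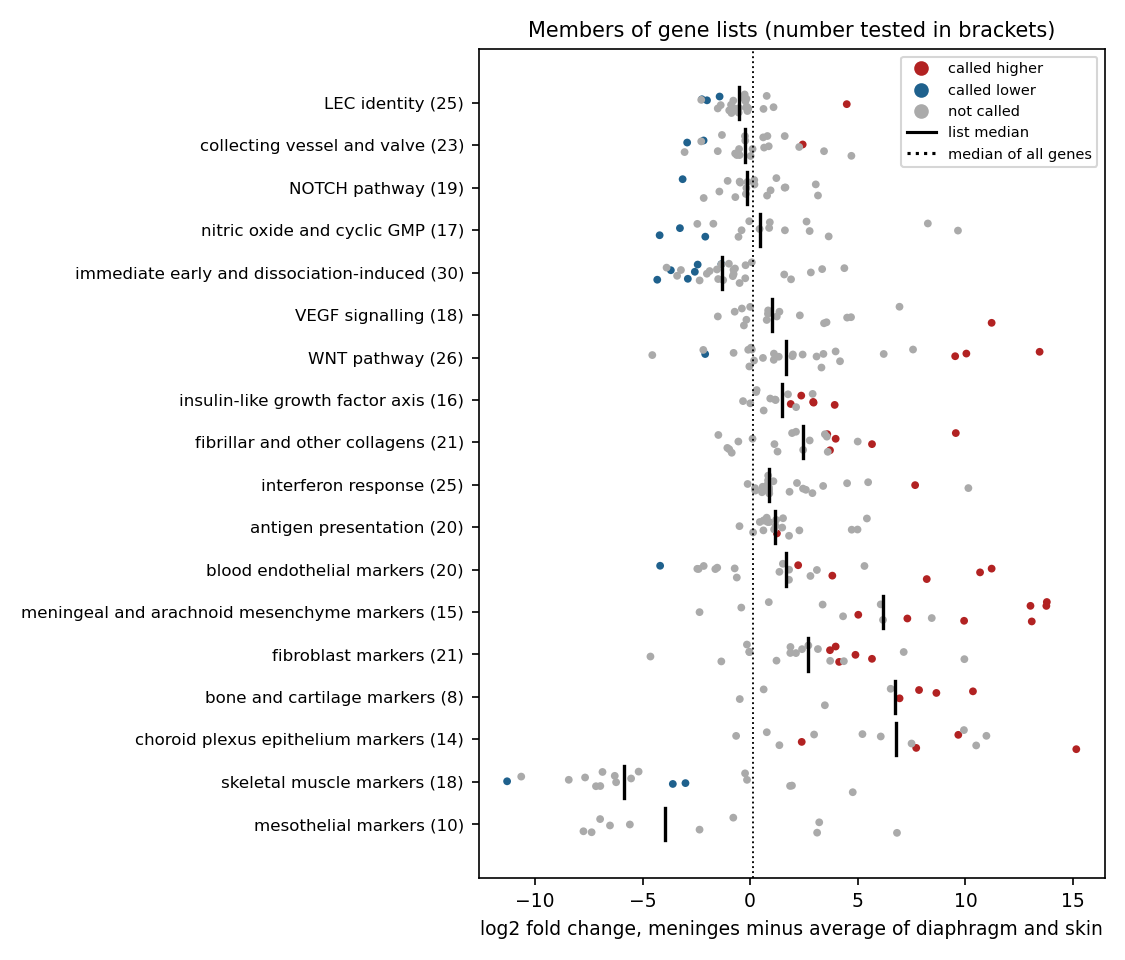
Log2 fold change of each tested member (points) of 18 gene lists, with called members in red or blue, the list median as a bar and the median of all genes as a dotted line. Called points lie to the left in the immediate early, NOTCH and nitric oxide lists and to the right in the insulin-like growth factor, collagen, fibroblast, mesenchyme, bone and choroid plexus lists, while the LEC identity list lies mostly just left of the dotted line.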

How the data were processed

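RNA from sorted mouse LECs of meninges, diaphragm and skin was sequenced, 3 libraries each (Arcturus PicoPure RNA, NuGEN Ovation RNA-Seq System V2 amplification, per the labels' protocols). The deposited table holds raw read counts per Ensembl gene for 23018 genes. FastQC, STAR, HTSeq and the mm9 build are named in the submitters' processing notes; no version or annotation is named, nor is the handling of strand or of multiply mapped reads, so overlapping and antisense genes cannot be separated. The table gave 15831 symbols, 7078 were taken from a reference list of gene names by Ensembl identifier, 22 date-like symbols were corrected, and 87 genes stayed unnamed.

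Counts were filtered with filterByExpr, scaled by TMM and fitted with edgeR 4.0.16 (limma 3.58.1, R 4.3.3) by quasi-likelihood over all 9 libraries, with 1 mean per tissue and the contrast of meninges against the average of the other two. P-values were adjusted by Benjamini-Hochberg over 14831 genes, and 0.05 was the threshold. The biological coefficient of variation was 1.24, with 6 residual degrees of freedom. A gene without a count in a tissue was bounded with 3 counts over the group. Total counts limit the precision of single low values. The script was tested on simulated data with known changes. It recovered 1 of 50 genes at 2-fold, 1 of 50 at 4-fold, 16 of 50 at 8-fold and 29 of 50 at 32-fold. In the same simulated data 3 unchanged genes were called. Genes that did not pass may therefore still differ.

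Named genes were 6 gate and identity genes, the 20 highest and 20 lowest called genes without overlap at an average of at least 3 log2 CPM, up to 4 called members of each of 44 lists with 2 abundant members where fewer than 2 were called, and 3 genes also called between diaphragm and skin. Outside this rule, and chosen after their values were seen, are Cldn5, Col3a1, Ctnnb1, Ctsd, Dcn, Egr1, Emcn, Enah, Hmgb1, Igf1, Itih5, Kcnj13, Klf4, Klf6, Lum, Mgp, Mrc1, Nos3, Pdgfra, Ptgds, Ptpru, Reln, Selp, Sema6a, Slc38a2, Stab1, Vim, Vwf, Zic1 and the markers that the filter removed. The contrast and the lists were chosen with earlier results of these data known. Alternatives were other scaling, filters, tests (DESeq2 1.42.0, limma voom, glmTreat, robust fit), a replicate block, a single peripheral group, removal of genes of other cell types or of the mitochondrial ribosomal RNAs, and each library left out. Figures were drawn with matplotlib 3.10.9.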

Additional observations from a re-analysis of the deposited data

Results flagged for a closer look

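Of the genes called in the contrast, 3 also differed between diaphragm and skin, where 6 genes passed in all (0.0405% of those tested), so for these the average of the 2 peripheral tissues stands for unlike levels. Oasl2 was at 10.2, 25.9 and 68.1 CPM in diaphragm and had no count in skin (edgeR adjusted p = 0.0201 for diaphragm against skin), and meninges, at 76.6 to 83.8 CPM, differed from skin (adjusted p = 0.00208) and did not pass against diaphragm (adjusted p = 0.784). Ifi203, an interferon-inducible gene of a family of close paralogs, was at 22.8 to 58.6 CPM in diaphragm and 0.137 to 0.284 CPM in skin (adjusted p = 0.0252). Its meningeal levels of 173, 23.2 and 55.6 CPM did not pass against diaphragm (adjusted p = 0.796). Emb, the cell surface glycoprotein embigin, was the reverse. It had 0.0369 CPM in Diaphragm replicate 1, no count in the other two, and 2.09, 73.1 and 27.2 CPM in skin (adjusted p = 0.0252). Meninges, at 80.6 to 116 CPM, passed against diaphragm (adjusted p = 0.00511) and not against skin (adjusted p = 0.582).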

How the results depend on the processing

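The contrast called 177 higher and 79 lower genes, and no gene was called in the opposite direction under any alternative run. Counts stayed within 1.5 times of these under DESeq2 size factors, upper-quartile scaling, at least 50 counts in 3 libraries, the robust fit, and removal of genes of other cell types or of the mitochondrial ribosomal RNAs. They moved further without a filter on low counts (608 higher, 186 lower), with limma voom and quality weights (573 and 166), with DESeq2's Wald test (629 and 352), with glmTreat against a log2 fold change of 1 (100 and 27), with the periphery as 1 group (76 and 44) and when Meninges replicate 1 alone stood for the meninges (3 and 2), the last an alternative chosen after seeing the data in which the lone library is assumed to vary like the other groups. Leaving out 1 library at a time gave 50 to 234 higher and 25 to 78 lower genes. With the replicate block 175 were higher and 80 lower, of which 139 and 69 were shared with the fit without it. With tissue means removed, libraries of the same number correlated between -0.0205 and 0.0512, and those of different numbers between -0.0565 and 0.0393. The labels do not say whether a number links libraries. With 3 libraries per tissue these values cannot decide it. Named genes turned sign in Meninges replicate 1 alone (Igf1 -0.24, Enah -0.29 and Hmgb1 -0.89). Hmgb1 did so without Meninges replicate 2 (-0.76, against 5.36 without Meninges replicate 1). Its levels were 36.9, 5573 and 43.3 CPM in Meninges replicates 1 to 3 and 35.3 to 113 CPM in the periphery. The Hmgb1 call therefore rested on Meninges replicate 2, and the cause of that library's level was not tested. The median change per gene was over 0.1 in size with Meninges replicate 1 alone (-0.14) and with limma voom (0.11). The median log2 fold change over all genes ran from -0.15 with Meninges replicate 1 alone to 0.31 without Skin replicate 2, beside 0.13. The alternatives did not all test the same genes. Of the called genes' values under alternatives, 4146 kept their side of the threshold and 1443 did not, the 4 that turned sign included. For named genes that were not called, 1014 values stayed uncalled and 18 passed. At 26075400 to 34592800 counts per library, depth limits genes of a few counts.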
